A study of Homo sapiens with 8 samples.

Results

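Oncofetal liver cancer genes are active in fetal liver, mostly fall to low levels in the healthy adult organ and are often found again in hepatoblastoma and hepatocellular carcinoma. They were followed here in HepG2, a cultured human liver tumour cell line that the labels give as hepatocellular carcinoma. The list was AFP, GPC3, IGF2, H19, DLK1, PEG10, IGF2BP1, IGF2BP3, LIN28B and SALL4. Its members were taken by symbol, and 9 of the 10 listed symbols were found among 26716 genes; H19 was not analysed here. All 9 passed the filter on low counts, as did 17715 genes in total. Cells had been transfected for 72 h, and each group had 2 libraries of poly(A) RNA. The siIPO8-miR-552-3p group received a miR-552-3p mimic at 1 nM with an siRNA against importin8 at 30 nM. The siIPO8-NC group received the negative control at 1 nM with the same importin8 siRNA at 30 nM. The miR-552-3p group received the mimic at 1 nM with the negative control at 30 nM, and the NC group received negative controls in both places. The table's columns read as mimic libraries do not carry the microRNA's name, so each mimic value rests on that reading. HepG2 is 1 line, so the comparisons describe that line, and the labels do not say whether the 2 experiments of a group were separate cultures. The p-values therefore reflect how far these libraries spread, and part of that spread may be technical only.

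Several of these genes belong to linked systems. AFP is the main plasma protein of the fetus and is encoded beside albumin, while GPC3 is a heparan sulfate proteoglycan of the cell surface. IGF2, H19, DLK1 and PEG10 are imprinted, which means that normally 1 parental copy is expressed. IGF2BP1, IGF2BP3 and LIN28B are RNA-binding proteins of early development, LIN28B blocks the maturation of let-7 microRNAs, and let-7 in turn represses LIN28B and the IGF2BP messages. SALL4 is a zinc finger transcription factor of stem cells that recruits the NuRD deacetylase complex. Importin8, encoded by IPO8, carries cargo into the nucleus and is also known to bind Argonaute proteins.

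The sequences below are the transfected microRNA, the let-7 family member used to search the same messages, and the places in the members' 3′ UTRs that pair with the miR-552-3p seed. In the microRNAs, from RefSeq on GRCh38.p14, capitals mark the seed, bases 2 to 8. In the target sites, from GENCODE v29 on GRCh38 and printed as the message strand, capitals mark the seed match, CACCTGT for miR-552-3p and CTACCTC for let-7a-5p. The let-7a-5p sites shown are the first of LIN28B and the first of IGF2BP1.
miR-552-3p: aACAGGUGacugguuagacaa
let-7a-5p: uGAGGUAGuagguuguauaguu
LIN28B, miR-552-3p site: gttgatacatagcaCACCTGTa
IGF2BP1, miR-552-3p site: gaattaagcctctcCACCTGTc
IGF2, miR-552-3p site: caaacactgaatgtCACCTGTg
LIN28B, let-7a-5p site 1: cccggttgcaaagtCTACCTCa
IGF2BP1, let-7a-5p site 1: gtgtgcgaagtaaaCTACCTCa

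The miR-552-3p sites lie at chr6:105081446-105081467 on the plus strand in LIN28B, at chr17:49052176-49052197 on the plus strand in IGF2BP1 and at chr11:2129260-2129281 on the minus strand in IGF2. The let-7a-5p sites shown lie at chr6:105078813-105078834 and at chr17:49051062-49051083, both on the plus strand. LIN28B, IGF2BP1 and IGF2 each held 1 CACCTGT in the 3′ UTR, and the other 6 members held none. Their 3′ UTRs are 4549, 6206 and 4470 bases long, and those of the other 6 are 379 to 5161 bases. Among 18887 genes with an annotated 3′ UTR, 15.2% held at least 1, at 0.127 matches per kilobase of UTR. CTACCTC occurred 4 times in LIN28B, 4 times in IGF2BP1, and once each in IGF2BP3 and SALL4. Among all these genes 8.62% held at least 1, at 0.0626 matches per kilobase. The shares of genes do not allow for UTR length, so the members' matches are not read as an excess. A match of letters is a description of the message and not a measured target site, and mature microRNAs were not measured here.

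Members with a miR-552-3p match moved in different directions. With the mimic and control siRNA, LIN28B fell, IGF2BP1 rose, and IGF2 had a log2 fold change of 0.00 that did not pass the test.

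AFP is shown by a stretch of its promoter, since it was the most abundant member. The 150 bases before the RefSeq start site, at chr4:73436071-73436220 on the plus strand of GRCh38.p14, hold 2 of 7 motifs searched in capitals, and 1 more, the CCAAT box read on the other strand, in lower case at -125 to -121. TATAAA lies at -29 to -24 and is the TATA box sequence. GTTAAT lies at -132 to -127 and is part of the palindrome bound by HNF1 factors. Only these exact letters were searched, so variants of the HNF1 site elsewhere in the stretch are not marked.
AFP promoter: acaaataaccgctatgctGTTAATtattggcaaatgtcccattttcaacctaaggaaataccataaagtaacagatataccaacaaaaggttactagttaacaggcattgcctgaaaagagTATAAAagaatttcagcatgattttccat

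The motifs searched, on both strands, were the TATA box TATAAA, the HNF1 motif GTTAAT, the CCAAT box, the E-box CACGTG, the SP1 box GGGCGG, the AP-1 motif TGANTCA and the miR-552-3p seed match CACCTGT. The 3 matches do not overlap. TATAAA was found in 11.5%, GTTAAT in 6.88% and CCAAT in 34.6% of 35116 RefSeq promoter windows of 300 bases. These matches were not tied to any binding measured here.

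The libraries held 21608563 to 22102373 expected counts each. IPO8, the target of the siRNA, had 7.65 and 8.3 CPM (counts scaled to library size) in siIPO8-miR-552-3p, 11.3 and 11.5 CPM in siIPO8-NC, 25.4 and 24.6 CPM in miR-552-3p, and 34.7 and 33.3 CPM in NC. It fell with the siRNA by 1.57 on the log2 scale under the control mimic (adjusted p = 4.5e-07), and also fell by 0.44 with the mimic alone (adjusted p = 0.00083). All 8 hepatocyte-like markers of the line exceeded 1 CPM in all 8 libraries. Their summed level was 55666 to 59289 CPM in siIPO8-miR-552-3p, 49320.3 to 50783 CPM in siIPO8-NC, 38856 to 40120.2 CPM in miR-552-3p and 52328 to 56441 CPM in NC. Calls of these 8 markers used an adjusted p under 0.05 in the edgeR test described below. In miR-552-3p against NC 0 rose and 7 fell (median log2 fold change -0.69), where 28.9% of all genes rose and 29.5% fell. In siIPO8-NC against NC 3 rose and 3 fell (0.02), beside 25.4% and 21.6%. In siIPO8-miR-552-3p against miR-552-3p 7 rose and 0 fell (0.47), beside 17.3% and 16.2%. In siIPO8-miR-552-3p against siIPO8-NC 1 rose and 4 fell (-0.23), beside 15.0% and 16.7%. The summed level of 6 endothelial and blood markers was 24.1 to 25.3 CPM in siIPO8-miR-552-3p, 20.7 to 23.5 CPM in siIPO8-NC, 42.5 to 42.7 CPM in miR-552-3p and 76.6 to 81.6 CPM in NC. The sum of 6 fibroblast markers was 9.38 to 10.4, 9.17 to 9.96, 8.58 to 9.25 and 12.9 to 19.8 CPM in the same order of groups. Neither list had a gene at 0 in all libraries. Both sums were highest in NC and were carried mostly by PECAM1 and PDGFRB, while other markers went the other way. CD79A averaged 12.8 CPM in miR-552-3p, against 0.289 CPM in NC, COL1A1 3.41 CPM in miR-552-3p, against 0.31 CPM in NC, and CDH5 2.87 CPM in siIPO8-NC, against 0.0669 CPM in NC. The part of these 3 marker lists in the results below was not tested. Fewer cells expressing a gene and less RNA per cell cannot be told apart in such bulk samples.

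Per transcript length, the members spanned a wide range of levels. AFP was the highest in each group, at 6142 and 6108 FPKM in siIPO8-miR-552-3p, 6305 and 6075 FPKM in siIPO8-NC, 4095 and 3898 FPKM in miR-552-3p, and 4703 and 3898 FPKM in NC. GPC3 averaged 1022 ± 12.3, 1114 ± 31.1, 773 ± 14.3 and 906 ± 42.8 FPKM in that order of groups, and IGF2 977 ± 6.48, 1111 ± 49.0, 445 ± 27.2 and 467 ± 49.7 FPKM (SD, n = 2 each). In siIPO8-NC the libraries of these 2 genes overlapped, so their order there was not distinct. INS-IGF2, a readthrough gene that overlaps IGF2, averaged 912, 1074, 435 and 422 FPKM in that order of groups. The place of IGF2 beside GPC3 therefore depends on how reads were divided between IGF2 and INS-IGF2. PEG10 stood above DLK1 in the 3 groups with mimic or siRNA, at 263 against 173 FPKM in siIPO8-miR-552-3p, 309.9 against 171 FPKM in siIPO8-NC and 155 against 138 FPKM in miR-552-3p. The order was turned in NC, where PEG10 averaged 106 FPKM and DLK1 117 FPKM.

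IGF2BP1 followed at 35.3 to 43.5 FPKM as a group mean. IGF2BP3 and LIN28B came next, and their order also turned. The deposited FPKM and counts of IGF2BP3 imply transcript lengths of 3772 to 4651 bases across libraries, so its FPKM is less certain. IGF2BP3 was above LIN28B in siIPO8-miR-552-3p (22.1 against 15.1 FPKM), in siIPO8-NC (23.0 against 14.6 FPKM) and in miR-552-3p (24.4 against 15.6 FPKM), and below it in NC (18.0 against 22.1 FPKM). SALL4 was last at 0.055 to 0.12 FPKM. Apart from GPC3 and IGF2 in siIPO8-NC, no neighbours in these orders overlapped between libraries.

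**Figure D1:**
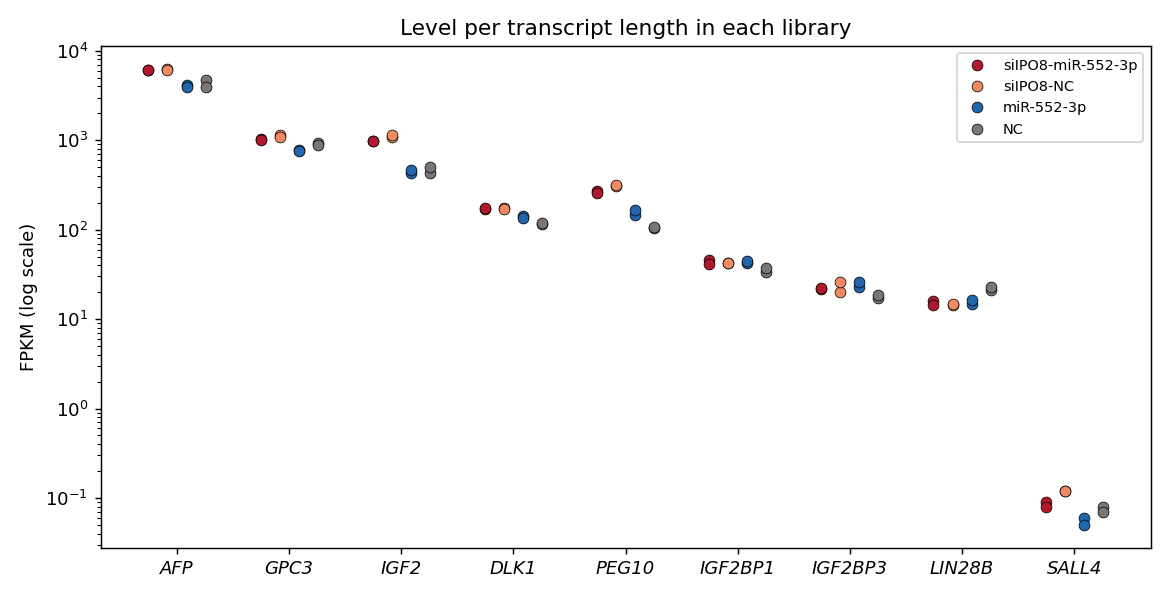
FPKM of the 9 members in each library on a log axis, with the groups siIPO8-miR-552-3p, siIPO8-NC, miR-552-3p and NC from left to right within each gene. AFP is highest in every group, SALL4 is lowest at 0.055 to 0.12 FPKM as group means, and PEG10 lies below DLK1 in NC alone among the groups.

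Further levels are CPM, scaled for library composition. A gene was called where edgeR's quasi-likelihood test gave a p under 0.05 after Benjamini-Hochberg adjustment across the 17715 genes. In miR-552-3p against NC, 5 of 9 members were called, 4 higher and 1 lower, where 58.4% of all genes were called, 28.9% higher and 29.5% lower. In siIPO8-NC against NC, 8 of 9 were called, 7 higher and 1 lower, where 47.0% of all genes were called, 25.4% higher and 21.6% lower. Both comparisons share the NC libraries. In siIPO8-miR-552-3p against miR-552-3p, 5 of 9 were called, all 5 higher, where 33.5% of all genes were called, 17.3% higher and 16.2% lower. The members' median log2 fold change was 0.30 in the first, 0.36 in the second and 0.35 in the third of these comparisons. Over all genes tested the median was -0.008, -0.002 and -0.01. Counts given for gene lists in these comparisons are to be read beside these shares of all genes called.

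With the importin8 siRNA in both arms, the mimic moved 0 of 9 members past the threshold in edgeR, 0 at an unadjusted p under 0.05, and 0 in DESeq2 and in limma-voom. Among all genes 31.7% were called there, 15.0% higher and 16.7% lower. Of these calls 47.2% were higher, or 36.7% when libraries were scaled by their totals alone. PEG10 was called in that comparison under that scaling (log2 fold change -0.23, adjusted p = 0.032) and when only the 4 libraries compared were fitted (-0.15, adjusted p = 0.036). The members' median was 0.06, beside -0.005 over all genes tested.

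**Figure D2:**
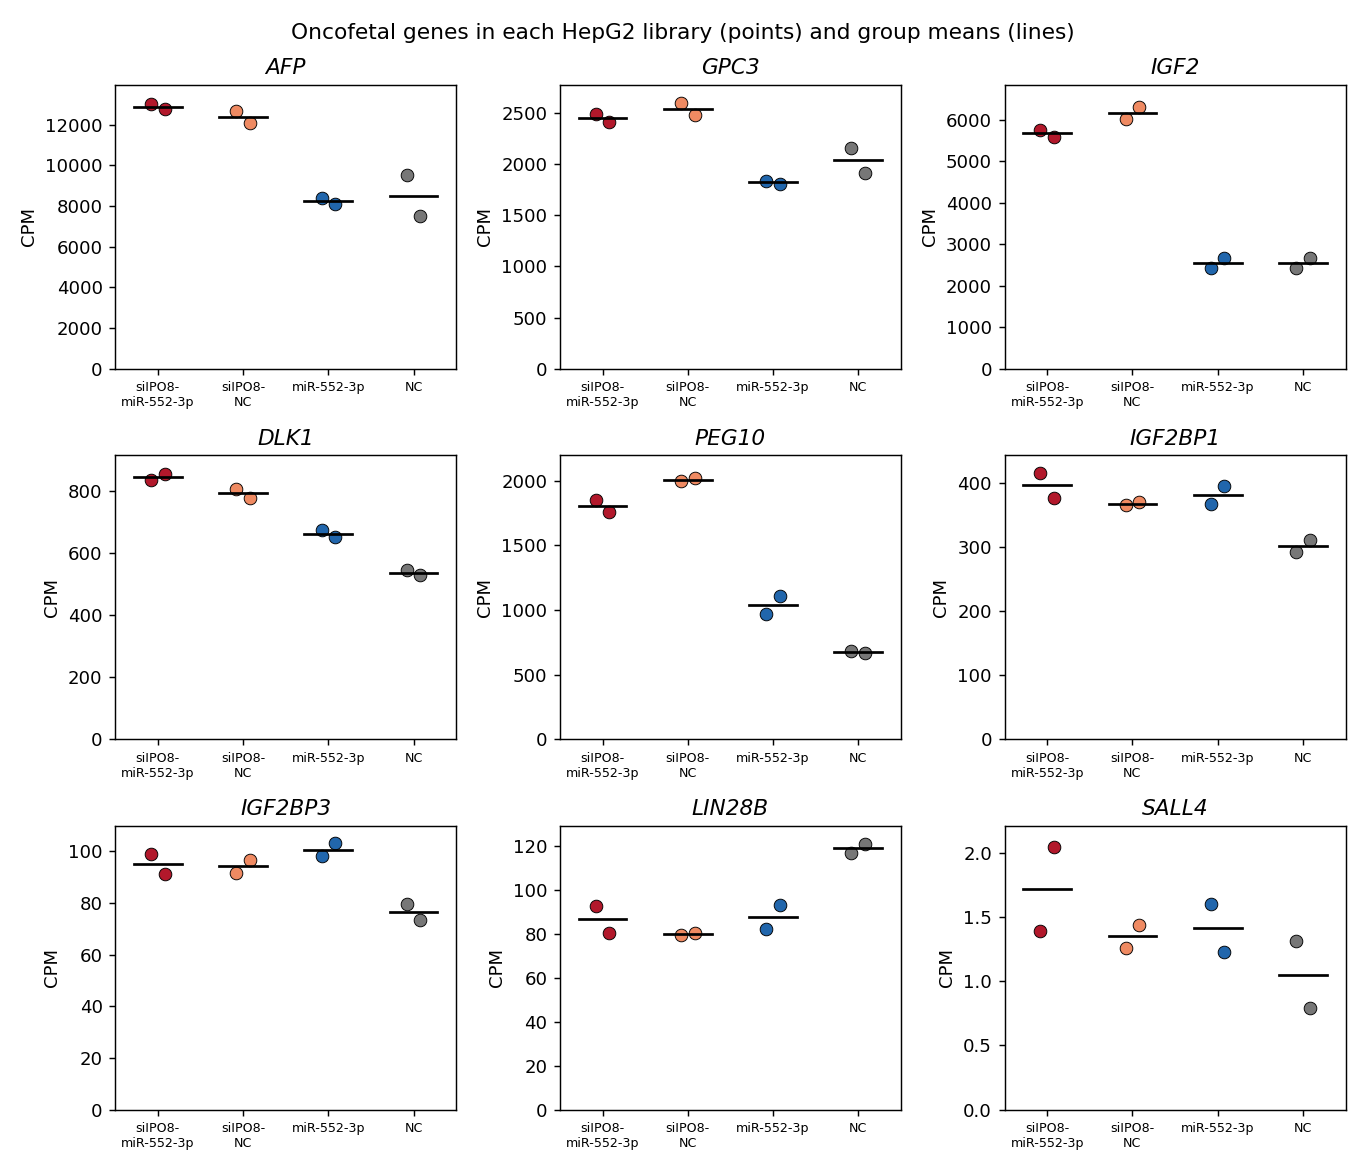
CPM of each member in each library (points) with the group mean (line), for siIPO8-miR-552-3p, siIPO8-NC, miR-552-3p and NC from left to right, on axes that start at 0. IGF2 is 5594 to 6319 CPM in the 4 importin8 siRNA libraries and 2419 to 2676 CPM in the other 4, and LIN28B is highest in both NC libraries.

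AFP and GPC3, the secreted and the surface tumour marker, rose with the importin8 siRNA and were not called with the mimic. AFP, at chr4:73431138-73456174 on GRCh38, had 13019.6 and 12766 CPM in siIPO8-miR-552-3p and 12695 and 12096 CPM in siIPO8-NC, against 8422 and 8099 CPM in miR-552-3p and 9512 and 7500.2 CPM in NC. All 4 siRNA libraries lay above the other 4. The log2 fold change was 0.54 ± 0.12 (SE) in siIPO8-NC against NC, adjusted p = 0.0038, and 0.64 ± 0.12 in siIPO8-miR-552-3p against miR-552-3p, adjusted p = 0.0023. In miR-552-3p against NC it was -0.04, with a 95% interval of -0.31 to 0.22 (adjusted p = 0.78). The NC libraries stood apart for AFP. The mimic value became -0.21 when NC replicate 2 was left out (adjusted p = 0.04) and 0.14 when NC replicate 1 was (adjusted p = 0.12).

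GPC3, at chrX:133535745-133985895, had 2490.2 and 2414 CPM in siIPO8-miR-552-3p and 2599.8 and 2479 CPM in siIPO8-NC, against 1837 and 1807 CPM in miR-552-3p and 2158 and 1911 CPM in NC. The groups with siRNA again did not overlap those without. The log2 fold change was 0.32 ± 0.09 in siIPO8-NC against NC (adjusted p = 0.012) and 0.43 ± 0.09 in siIPO8-miR-552-3p against miR-552-3p (adjusted p = 0.0036). Without siIPO8-NC replicate 1 the first of these was 0.29 and was not called (adjusted p = 0.086). With the mimic alone the value was -0.16, with an interval of -0.35 to 0.03 (adjusted p = 0.14). That value passed the threshold without NC replicate 2 (-0.25, adjusted p = 0.012), with library totals as the scaling (-0.22, adjusted p = 0.013) and in DESeq2 (-0.16, adjusted p = 0.038).

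Albumin, whose gene adjoins AFP on chromosome 4, did not follow it. ALB had 21666 and 20794 CPM in siIPO8-NC, against 27723 and 24491 CPM in NC, a log2 fold change of -0.30 (adjusted p = 0.039). It had 29573 and 28615 CPM in siIPO8-miR-552-3p, against 21535 and 21604 CPM in miR-552-3p, a log2 fold change of 0.43 (adjusted p = 0.0099). The siRNA therefore had ALB lower under the control mimic and higher under miR-552-3p, while AFP was higher in both. The test of the difference between these effects was called for ALB (0.73, adjusted p = 0.0042) and not for AFP (0.10, adjusted p = 0.71). AFM, the gene on the other side of AFP, had at most 0.36 CPM in any library.

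Genes that regulate AFP moved in both directions. Of 18 tested genes of the albumin family and AFP regulators, 7 rose and 7 fell in siIPO8-NC against NC, 2 rose and 10 fell in miR-552-3p against NC, and 9 rose and 3 fell in siIPO8-miR-552-3p against miR-552-3p. Their median log2 fold changes were 0.07, -0.32 and 0.31. NR5A2, a nuclear receptor that activates AFP, averaged 8.17 ± 0.0778 CPM in siIPO8-NC and 5.27 ± 0.0569 CPM in miR-552-3p, against 46.5 ± 2.38 CPM in NC (SD, n = 2 each). ZHX2, a repressor of Afp in the adult mouse, averaged 154 ± 0.743 CPM in siIPO8-miR-552-3p, against 78.3 ± 3.3 CPM in miR-552-3p (SD, n = 2 each), a log2 fold change of 0.97. ZBTB20, another repressor of Afp in mouse liver, averaged 36.0 ± 2.74 CPM in siIPO8-miR-552-3p, against 71.8 ± 6.85 CPM in miR-552-3p (SD, n = 2 each; adjusted p = 0.00011). FOXA1, a pioneer factor of liver development, rose by 0.73 on the log2 scale in siIPO8-NC against NC (adjusted p = 1.6e-05).

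The imprinted members IGF2, PEG10 and DLK1 rose with the siRNA under both mimics, and PEG10 and DLK1 also rose with the mimic under control siRNA. IGF2, the fetal insulin-like growth factor, had 5765 and 5594 CPM in siIPO8-miR-552-3p and 6008 and 6319 CPM in siIPO8-NC, against 2425 and 2666 CPM in miR-552-3p and 2419 and 2676 CPM in NC. The 4 siRNA libraries stood above the other 4, and the mimic libraries overlapped the control mimic libraries under control siRNA. IGF2 was 2.42-fold higher in siIPO8-NC against NC (log2 fold change 1.27 ± 0.09, adjusted p = 3.7e-06). It was 2.23-fold higher in siIPO8-miR-552-3p against miR-552-3p (1.16 ± 0.09, adjusted p = 1.4e-05). The mimic value was 0.00 with control siRNA (interval -0.21 to 0.21) and -0.12 with importin8 siRNA (interval -0.33 to 0.09).

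IGF2, at chr11:2129112-2158658 on the minus strand, overlaps the readthrough gene INS-IGF2 at chr11:2132538-2161209 on the same strand. Another annotated span of IGF2, chr11:2129112-2149603, is shorter and also overlaps INS-IGF2. Reads of both can be divided in more than 1 way, so the level of either alone is uncertain. IGF2 held 53.6 to 58.4% of their summed CPM in the 8 libraries. INS-IGF2 had 5174 and 5078 CPM in siIPO8-NC, against 2096 and 1909 CPM in NC, a log2 fold change of 1.36 (adjusted p = 1.9e-06). With both summed, the values were 1.31 in siIPO8-NC against NC (adjusted p = 2.5e-06), 1.13 in siIPO8-miR-552-3p against miR-552-3p (adjusted p = 1.3e-05) and 0.04 in miR-552-3p against NC (adjusted p = 0.71).

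PEG10, a retrotransposon-derived gene, at chr7:94656325-94669695, had 1848 and 1761 CPM in siIPO8-miR-552-3p, 1996 and 2024 CPM in siIPO8-NC, 972 and 1111 CPM in miR-552-3p, and 686 and 667 CPM in NC. No 2 groups overlapped. PEG10 was 2.97-fold higher in siIPO8-NC against NC, with a log2 fold change of 1.57 ± 0.09 (adjusted p = 5.5e-07). It rose by 0.62 ± 0.09 in miR-552-3p against NC (adjusted p = 0.00013) and by 0.79 ± 0.09 in siIPO8-miR-552-3p against miR-552-3p (adjusted p = 7.6e-05). SGCE, the imprinted gene next to PEG10, had 37.9 and 41.1 CPM in siIPO8-NC, against 33.1 and 26.8 CPM in NC. Its log2 fold change was 0.40 (adjusted p = 0.0071) there and 0.22 (adjusted p = 0.085) in miR-552-3p against NC.

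DLK1, a surface protein of hepatoblasts related to Notch ligands, at chr14:100725705-100738224, had 835 and 855 CPM in siIPO8-miR-552-3p, 808 and 779 CPM in siIPO8-NC, 673 and 653 CPM in miR-552-3p, and 545 and 529 CPM in NC. Its groups were also separate, with both NC libraries lowest. It rose by 0.56 ± 0.07 on the log2 scale in siIPO8-NC against NC (adjusted p = 9e-05), by 0.35 ± 0.07 in siIPO8-miR-552-3p against miR-552-3p (adjusted p = 0.003) and by 0.30 ± 0.07 in miR-552-3p against NC (adjusted p = 0.0032). MEG3, the maternally expressed partner of DLK1, had at most 0.807 CPM in any library.

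Other imprinted genes did not share one direction. Of 14 tested genes of the imprinted growth network beyond the members, 1 rose and 5 fell in siIPO8-NC against NC, with a median log2 fold change of -0.29, and 3 rose and 6 fell in miR-552-3p against NC, with a median of -0.10. On chromosome 11 near IGF2, KCNQ1OT1, the antisense RNA of the neighbouring imprinted domain, whose reads cannot be told from those of KCNQ1 without strand, averaged 90.8 ± 15.4 CPM in siIPO8-NC and 36.1 ± 3.99 CPM in miR-552-3p, against 257 ± 43.4 CPM in NC (SD, n = 2 each). PHLDA2, which restrains placental growth, averaged 7.14 ± 0.051 CPM in siIPO8-NC and 35.6 ± 0.161 CPM in miR-552-3p, against 16.3 ± 0.134 CPM in NC (SD, n = 2 each). PEG3, a paternally expressed zinc finger gene, fell by 1.59 in miR-552-3p against NC (adjusted p = 1.4e-07). GRB10, an adaptor that dampens insulin receptor signalling, rose by 2.74 in the same comparison (adjusted p = 4.9e-08).

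Other genes of the IGF axis were called with the mimic, under which IGF2 was not. Of 13 tested genes 6 rose and 5 fell in miR-552-3p against NC, and 4 rose and 3 fell in siIPO8-NC against NC. IGFBP1, a secreted binding protein of insulin-like growth factors, averaged 1311 ± 151 CPM in siIPO8-NC and 3542 ± 83.7 CPM in miR-552-3p, against 67.4 ± 34.6 CPM in NC (SD, n = 2 each). IGFBP2 rose by 4.39 and IGFBP3 by 4.46 on the log2 scale in miR-552-3p against NC (adjusted p = 1.9e-09 and 2e-06). IGF1R, the receptor through which IGF2 signals, averaged 65.6 ± 9.9 CPM in siIPO8-NC, against 182 ± 46.3 CPM in NC (SD, n = 2 each), a log2 fold change of -1.47 (adjusted p = 0.0065).

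Of the RNA-binding members, IGF2BP1 and IGF2BP3 rose and LIN28B fell with either agent against NC. Those comparisons share the NC libraries. In siIPO8-miR-552-3p against miR-552-3p none of these genes was called. Their log2 fold changes there were 0.05 for IGF2BP1, -0.08 for IGF2BP3 and -0.02 for LIN28B (adjusted p = 0.65, 0.43 and 0.91). IGF2BP1, at chr17:48997412-49055650, had 415 and 376 CPM in siIPO8-miR-552-3p, 365 and 369 CPM in siIPO8-NC, 367 and 395 CPM in miR-552-3p, and 292 and 311 CPM in NC. The NC libraries lay below the other 6, and miR-552-3p overlapped both groups with siRNA. It rose by 0.34 ± 0.08 in miR-552-3p against NC (adjusted p = 0.0032) and by 0.28 ± 0.08 in siIPO8-NC against NC (adjusted p = 0.011). The second value was 0.30 without siIPO8-NC replicate 1 and 0.28 without siIPO8-NC replicate 2, and was then not called (adjusted p = 0.051 and 0.06).

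IGF2BP3, at chr7:23310209-23470467, had 98.9 and 91.2 CPM in siIPO8-miR-552-3p, 91.6 and 96.5 CPM in siIPO8-NC, 97.9 and 103 CPM in miR-552-3p, and 79.5 and 73.5 CPM in NC. Again both NC libraries were the lowest. It rose by 0.39 ± 0.07 in miR-552-3p against NC (adjusted p = 0.00072) and by 0.30 ± 0.07 in siIPO8-NC against NC (adjusted p = 0.0054). IGF2BP2, the family member that adult tissues keep, rose by 0.53 with the mimic (adjusted p = 7.1e-05) and had a value of 0.15 with the siRNA (adjusted p = 0.092), both against NC.

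LIN28B, at chr6:104936616-105083332, was the member that fell. It had 92.7 and 80.7 CPM in siIPO8-miR-552-3p, 79.4 and 80.4 CPM in siIPO8-NC, 82.1 and 93.3 CPM in miR-552-3p, and 117 and 121 CPM in NC. Both NC libraries stood above the other 6, among which siIPO8-NC was lowest and the other two groups overlapped. It fell by 0.44 ± 0.08 in miR-552-3p against NC (adjusted p = 0.001) and by 0.57 ± 0.08 in siIPO8-NC against NC (adjusted p = 0.00027). Under the siRNA the mimic value was 0.12, with an interval of -0.07 to 0.30 (adjusted p = 0.33). LIN28A, its paralog, had group means of at most 0.176 CPM.

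Of 19 tested genes of the rest of the LIN28 and let-7 pathway, 10 rose and 2 fell in siIPO8-NC against NC, with a median log2 fold change of 0.21, and 9 rose and 5 fell in miR-552-3p against NC, with a median of 0.13. In siIPO8-miR-552-3p against siIPO8-NC 4 rose and 5 fell, with a median of -0.13, and for the difference between the mimic effects 2 were called positive and 7 negative, with a median of -0.39. HMGA1, a chromatin protein whose message carries let-7 sites, averaged 2577 ± 164 CPM in miR-552-3p, against 439.7 ± 16.4 CPM in NC (SD, n = 2 each), a log2 fold change of 2.55 (adjusted p = 5.5e-09). TRIM71, another known let-7 target, averaged 56.9 ± 2.37 CPM in miR-552-3p, against 130.3 ± 5.84 CPM in NC (SD, n = 2 each). MYC rose by 1.09 in siIPO8-NC against NC (adjusted p = 1.1e-06). DIS3L2, the nuclease that degrades let-7 precursors marked through LIN28, rose by 0.75 in that comparison (adjusted p = 7.4e-05).

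SALL4, at chr20:51782331-51802520, had 18.1 to 43.5 expected counts per library and was not called in any of the 5 comparisons. It had 1.39 and 2.04 CPM in siIPO8-miR-552-3p, 1.26 and 1.44 CPM in siIPO8-NC, 1.6 and 1.23 CPM in miR-552-3p, and 1.31 and 0.789 CPM in NC. The siIPO8-miR-552-3p libraries lay above those of NC, and the other pairs of groups overlapped. The interval of its log2 fold change ran from -0.41 to 1.28 in miR-552-3p against NC and from -0.48 to 1.21 in siIPO8-NC against NC. Changes within those bounds were therefore not excluded at this depth. The deposited FPKM and counts of SALL4 imply transcript lengths of 10667 to 26556 bases across libraries and put the groups in different orders, so its level is uncertain. Of 15 tested genes of the SALL family and NuRD complex, 3 rose and 7 fell in miR-552-3p against NC, and 2 rose and 5 fell in siIPO8-NC against NC. SALL2 fell by 1.76 with the mimic (adjusted p = 2.2e-07), and SALL1 fell by 1.07 with the siRNA (adjusted p = 3.4e-05), both against NC.

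**Figure D3:**
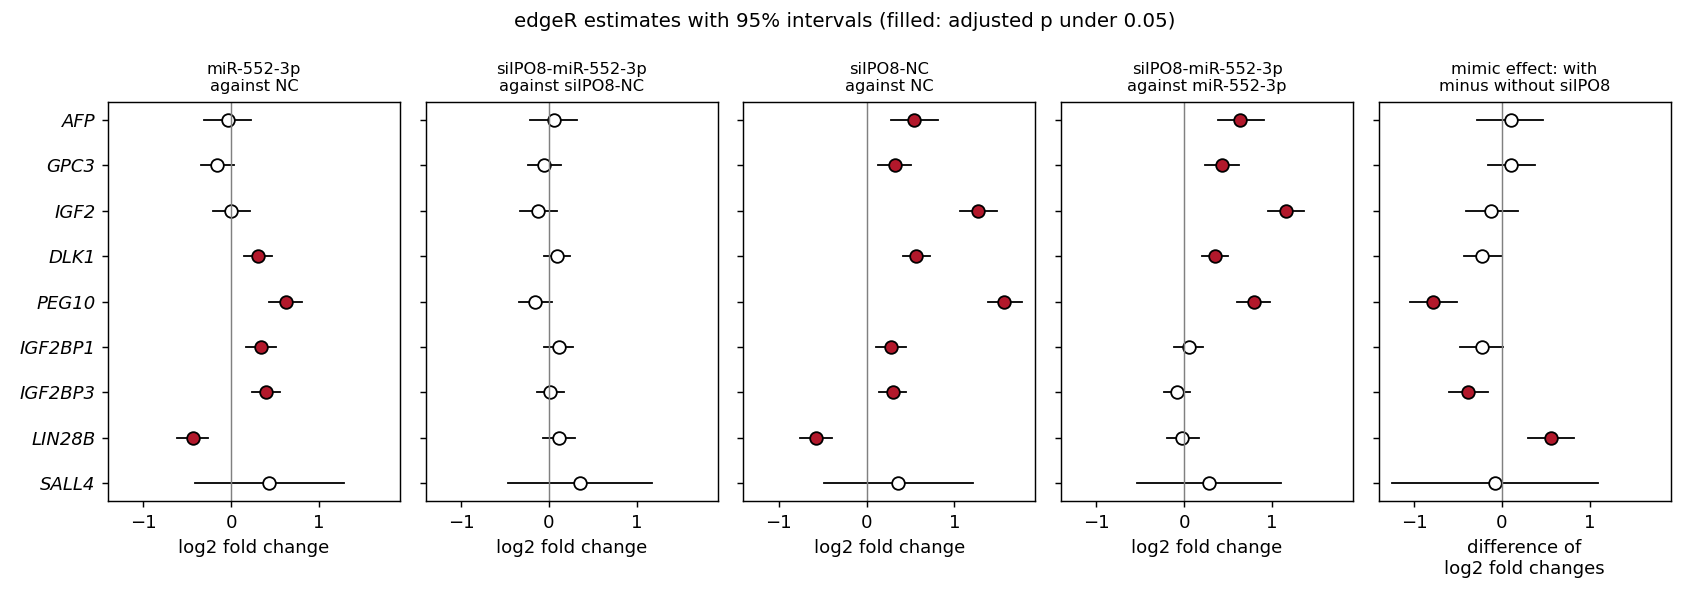
edgeR log2 fold changes of the 9 members with 95% intervals in 5 comparisons, from the mimic with control siRNA on the left to the difference between the mimic effects on the right, with filled points for an adjusted p under 0.05. Called members number 5, 0, 8, 5 and 3 from left to right, and SALL4 has the widest intervals.

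The effect of the mimic differed between the siRNA backgrounds for 3 of 9 members, 1 with a positive and 2 with a negative difference, where 31.3% of all genes were called for this difference, 14.2% positive and 17.1% negative. The difference was the log2 fold change of the mimic with importin8 siRNA minus that with control siRNA. PEG10 had a difference of -0.78 ± 0.12 (adjusted p = 0.00087), since the mimic value was -0.16 with importin8 siRNA and 0.62 with control siRNA. IGF2BP3 had a difference of -0.38 ± 0.10 (adjusted p = 0.015), from 0.01 with importin8 siRNA and 0.39 with control siRNA. LIN28B had a difference of 0.56 ± 0.12 (adjusted p = 0.005), from 0.12 with importin8 siRNA and -0.44 with control siRNA. In each of these 3 genes siIPO8-NC also differed from NC in the direction of the mimic. The call for IGF2BP3 was lost without miR-552-3p replicate 2 (-0.34, adjusted p = 0.056), without siIPO8-NC replicate 2 (-0.34, adjusted p = 0.063) or without siIPO8-miR-552-3p replicate 2 (-0.32, adjusted p = 0.067).

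DLK1 had a difference of -0.22, with an interval of -0.43 to 0.00 (adjusted p = 0.12), and was called in DESeq2 (-0.21, adjusted p = 0.049). IGF2BP1 had a difference of -0.23, with an interval of -0.47 to 0.01 (adjusted p = 0.14). AFP, GPC3 and IGF2 had differences of 0.10, 0.11 and -0.12, with intervals of -0.28 to 0.47, -0.16 to 0.38 and -0.41 to 0.18. These intervals leave room for differences of either sign. The members' median difference was -0.12, beside -0.021 over all genes tested.

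**Figure D4:**
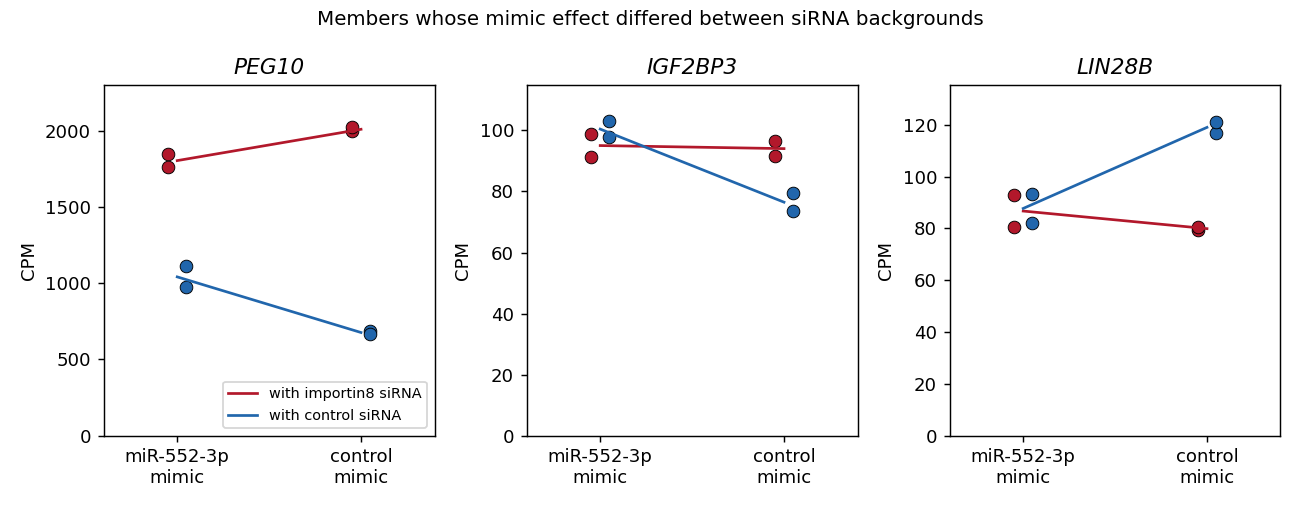
CPM of PEG10, IGF2BP3 and LIN28B in each library (points) with lines joining group means, for the miR-552-3p mimic on the left and the control mimic on the right, with importin8 siRNA in red and control siRNA in blue. The blue lines slope and the red lines are flatter, with mimic log2 fold changes of 0.62, 0.39 and -0.44 under control siRNA and of -0.16, 0.01 and 0.12 under importin8 siRNA.

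Genes of the mature hepatocyte were set beside the members. Of 15 tested adult hepatocyte genes, 2 rose and 12 fell in miR-552-3p against NC, with a median log2 fold change of -0.88. There 4 members rose and 1 fell, and 28.9% of all genes were called higher and 29.5% lower. With the mimic under importin8 siRNA, in siIPO8-miR-552-3p against siIPO8-NC, 2 rose and 7 fell, with a median of -0.45. There 0 of 9 members were called, and 15.0% of all genes were called higher and 16.7% lower. In siIPO8-NC against NC 6 rose and 6 fell, with a median of -0.06. In siIPO8-miR-552-3p against miR-552-3p 10 rose and 0 fell, with a median of 0.89. HPX, which carries haem in plasma, fell by 3.64 with the mimic against NC (adjusted p = 1.1e-07). ADH4, an alcohol dehydrogenase, rose by 5.64 in that comparison (adjusted p = 6e-09). TTR, a plasma carrier of thyroid hormone, averaged 627 ± 28.7 CPM in siIPO8-NC, against 277 ± 63.7 CPM in NC (SD, n = 2 each), a log2 fold change of 1.18 (adjusted p = 0.00016).

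Of 21 other tested hepatoblast and liver cancer markers, 11 rose and 8 fell in siIPO8-NC against NC, and 9 rose and 9 fell in miR-552-3p against NC. KRT19, a keratin of bile duct and progenitor cells, and SOX4, a developmental transcription factor, each rose by 4.40 with the mimic against NC (adjusted p = 1.6e-09 and 6.4e-10). CYP3A7, the fetal liver cytochrome, fell by 5.02 with the mimic (adjusted p = 1.2e-07) and by 4.12 with the siRNA (adjusted p = 7.5e-07), both against NC.

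For surface partners of the members, 3 of 11 tested genes of the DLK1 and Notch list rose and 0 fell in siIPO8-NC against NC, while 6 rose and 1 fell in miR-552-3p against NC. JAG1, a Notch ligand, averaged 799 ± 13.5 CPM in miR-552-3p, against 121 ± 10.4 CPM in NC (SD, n = 2 each). HES1, a target of Notch, rose by 1.08 in siIPO8-NC against NC (adjusted p = 1e-05). Of 14 tested glypicans and heparan sulfate enzymes, 4 rose and 7 fell in miR-552-3p against NC, and 2 rose and 3 fell in siIPO8-NC against NC. HS6ST1, which adds sulfate to heparan chains such as those on GPC3, fell by 2.52 with the mimic against NC (adjusted p = 1.8e-09).

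**Figure D5:**
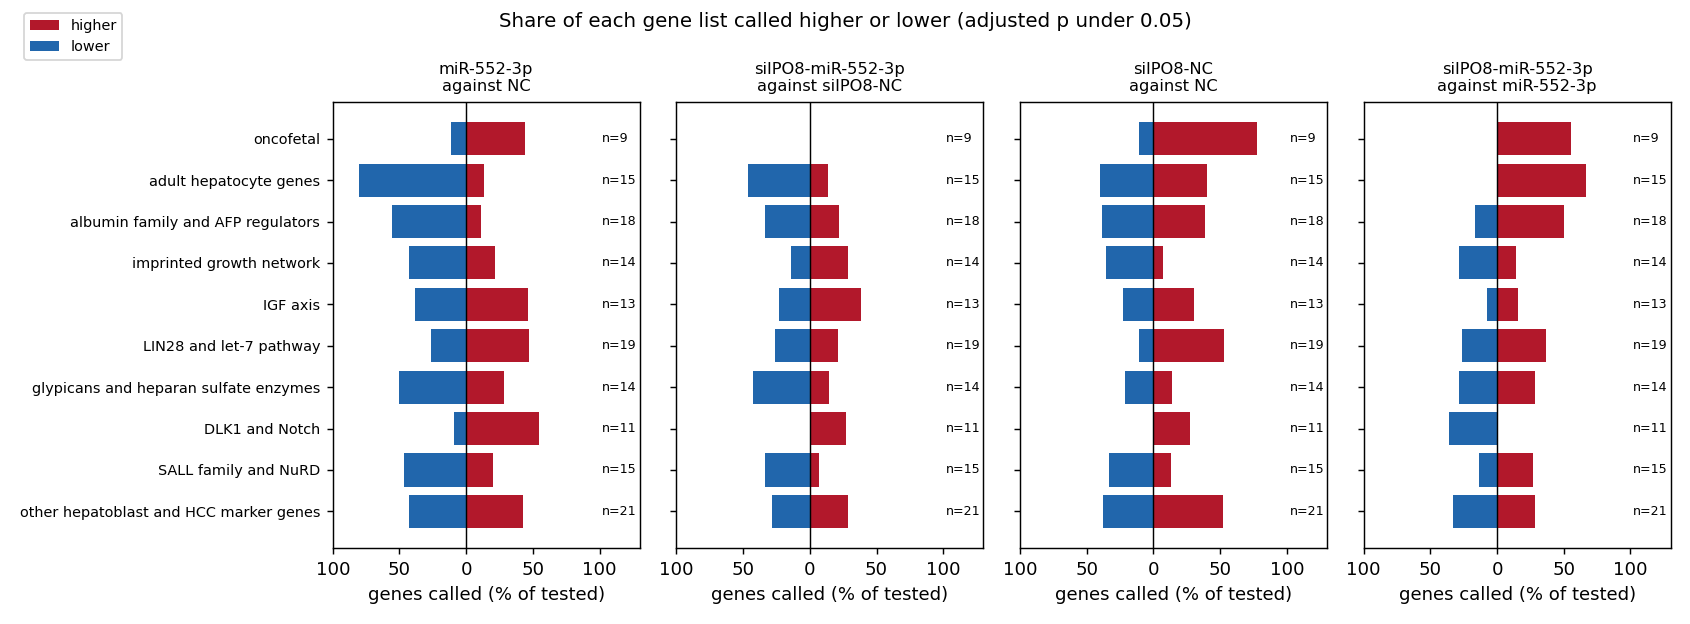
Percent of the tested genes of each list called higher (red, to the right) or lower (blue, to the left) in 4 comparisons, with the number tested at the right of each panel. With the mimic under control siRNA 12 of 15 adult hepatocyte genes are lower, where 29.5% of all genes were lower. With the importin8 siRNA under control mimic 7 of 9 oncofetal genes are higher, where 25.4% of all genes were higher.

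The genes whose pattern was nearest to each member over the 8 libraries were found by the root mean square difference of centred log2 CPM, as a description. TF, the plasma iron carrier transferrin, was nearest to AFP at 0.041, followed by SERPIND1 and RNASEH2B. PDHA1 was nearest to GPC3 at 0.031, TRIM58 to IGF2 at 0.075 with INS-IGF2 second at 0.085, TOMM40 to DLK1 at 0.03 and RASSF3 to PEG10 at 0.087. RAD51B was nearest to IGF2BP1 at 0.038, YAP1 to IGF2BP3 at 0.045 and EP300 to LIN28B at 0.056. GASAL1 was nearest to SALL4 at 0.136, the widest of these distances. The span of centred log2 CPM between a member's lowest and highest library was 0.49 for IGF2BP3 and 1.6 for PEG10, with the other members between them.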

How the data were processed

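Each gene and library has, per the file headers, an expected count and an expression value read here as FPKM; both were deposited by the authors. Poly(A) RNA was read as single-end reads of 50 bases, per the labels' protocols. The submitters' processing notes name HISAT2 2.0.4, Bowtie2 2.2.5, RSEM 1.2.8 and GRCh38.p12, with no role stated. Whether counting used strand is not stated in the labels or headers, so overlapping genes are uncertain. Column names were matched to sample titles by reading their abbreviations. Those read as mimic libraries hold NC or SI and a numeral, not the microRNA's name, and the files do not spell this out. The table of 8 libraries was used; a table of 4 repeats it with 0 differing cells.

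Expected counts as deposited were rounded to whole numbers, filtered with filterByExpr (17715 genes kept), scaled by TMM (factors 0.961 to 1.06) and fitted over all 8 libraries with the robust quasi-likelihood test of edgeR 4.0.16, with Benjamini-Hochberg adjustment over all genes tested. SE values are approximate. FPKM were used as deposited. The 2 libraries of a group differed beyond sampling noise in all 4 groups. Same-numbered libraries of 2 groups had deviations that correlated at -0.003 to 0.087, so the numbers were not taken as pairs. DESeq2 1.42.0, limma-voom (limma 3.58.1), other scalings, filters and leaving out libraries were alternatives.

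The members and gene lists were chosen with earlier results of these data known. The text names the members, IPO8, up to 4 called genes of each list and comparison with a mean of at least 50 counts, and for each member the nearest gene, or up to the 3 nearest, with a mean of at least 100 counts. INS-IGF2, AFM, SGCE, MEG3, LIN28A and IGF2BP2, as neighbours or relatives of members, and the markers CDH5 and COL1A1 lie outside that rule and were named after their values were seen, as were values given for named genes in further comparisons.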

Additional observations from a re-analysis of the deposited data

Results flagged for a closer look

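The effect of the mimic differed between the siRNA backgrounds by a test of the difference itself in 3 of 9 members, a share near the 31.3% of all genes called for this difference, so the count is no result about the members. PEG10 had a difference of -0.78 on the log2 scale, between -0.16 with importin8 siRNA and 0.62 with control siRNA. IGF2BP3 had a difference of -0.38, between 0.01 with importin8 siRNA and 0.39 with control siRNA, and its call rested on single libraries. LIN28B had a difference of 0.56, between 0.12 with importin8 siRNA and -0.44 with control siRNA. For all 3 genes siIPO8-NC differed from NC in the same direction as miR-552-3p did, with log2 fold changes of 1.57, 0.30 and -0.57 in siIPO8-NC against NC.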

How the results depend on the processing

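Log2 fold changes of the members mostly kept their direction and side of the threshold: 806 of 841 values recomputed under alternatives did. The 22 that changed sign were of results not called in the main analysis. For the mimic effect on IGF2 with control siRNA, near 0, the value was 0.04 with INS-IGF2 summed, 0.0007 with only the 4 libraries compared, 0.0013 without the gene with the most counts, 0.0015 without 2 abundant unnamed predictions, and -0.07 to 0.07 when single libraries were left out. Both the summing and the removal of 2 predictions were chosen after seeing the data. With library totals alone, the mimic effect under importin8 siRNA was -0.01 for AFP and -0.06 for IGF2BP3, and 1 member was called there in place of 0, as with only the 4 libraries compared.

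Leaving out single libraries gave ranges that crossed 0 as follows: the mimic effect on AFP with control siRNA -0.21 to 0.14; that on IGF2BP3 with importin8 siRNA -0.03 to 0.08; the siRNA effect under the mimic -0.02 to 0.13 for IGF2BP1, -0.12 to 0.09 for LIN28B and -0.02 to 0.53 for SALL4; and the difference between mimic effects -0.07 to 0.26 for AFP and -0.48 to 0.24 for SALL4. Genes called for the mimic with importin8 siRNA numbered 3545 to 6087, against 5607 with all libraries; the lowest counts were 3545, with replicate 2 of siIPO8-NC left out, and 3551, with replicate 1 of siIPO8-miR-552-3p left out. The cause was not tested.

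With the replicate block, members called were 5, 0, 8, 5 and 3 and genes called 10424, 5847, 8496, 6121 and 5786 in the mimic, mimic under siRNA, siRNA, siRNA under mimic and difference comparisons, which changed no call of a member. The numbers share no stated batch. With 2 libraries a group, an arm reduced to 1 library was assumed to vary like the others. Depth limits SALL4 above all, and expected counts cannot settle how reads divide between IGF2 and INS-IGF2.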
